A study of Rattus norvegicus with 8 samples.

Results

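The hypothalamic wall of the third ventricle carries 2 kinds of specialised cells, and 9 marker genes of these cells are described here in rats injected with all-*trans* retinoic acid (RA) or vehicle. The markers were taken by name as 6 tanycyte genes (*Rax*, *Gpr50*, *Fabp7*, *Ppp1r1b*, *Lhx2* and *Dbi*) and 3 genes of ciliated ependymal cells (*Foxj1*, *Rsph1* and *Dnai1*). Each of the 9 had at least 1 probe, out of 15159 genes that could be named on the array. Male rats of the F344N strain, held in a short day photoperiod (SD), received 5 μl of RA or vehicle in the third ventricle through a cannula, and hypothalamic blocks of 60 to 80 mg that included the arcuate nuclei were taken 24 hrs later. The labels give the injected solutions as RA at 1e-05 M and saline, whereas the methods of the study give RA at 1e-04 M in DMSO and saline. The age of the rats is not stated in the sources used here. RNA of 4 RA-injected and 4 vehicle-injected rats was hybridised to 8 two-colour Agilent arrays, each with RA in one dye and vehicle in the other, with RA in Cy5 on arrays 1, 3, 6 and 8 and in Cy3 on arrays 2, 4, 5 and 7. All arrays shared 1 slide, on which row 1 held arrays 1 to 4 and row 2 held arrays 5 to 8. The methods state that the same samples were used again with the dyes exchanged, so the 8 arrays are not 8 independent comparisons, and which arrays share RNA is not given in the sources used here.

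Tanycytes are elongated glial cells of the ventricular floor and lower walls, with a cell body at the cerebrospinal fluid and a process that reaches into the arcuate nucleus or the median eminence. They control the local activation of thyroid hormone in seasonal animals, sense nutrients, and keep properties of radial glia, among them the capacity to divide. Ciliated ependymal cells line the upper wall and drive the flow of cerebrospinal fluid with motile cilia, which are built on a transcriptional programme led by *Foxj1*. Several of the 9 genes are not exclusive to these cells. *Ppp1r1b* encodes DARPP-32, an abundant protein of striatal neurons, whereas *Fabp7* and *Dbi* are also expressed in astrocytes. In tissue blocks, fewer cells of a type and less RNA per cell cannot be told apart.

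Values are log2 ratios of RA over vehicle after loess normalisation within arrays, so that 0 means equal levels in both channels, and a gene with several probes is represented by its brightest. Of the 9 markers, 7 were well above background in both channels on all 8 arrays (4 of the 6 tanycyte genes and 3 of 3 ciliated cell genes), as were 9463 of the 15159 named genes. The exceptions were *Rax* and *Gpr50*. Each probe was tested with limma on 4 means of an array of each dye order, and the largest p over all 24 ways of forming such pairs was kept. At the unadjusted p under 0.01 that the methods use, 1 of the 9 markers passed, *Fabp7*, which was higher after RA. Across all probes 3.25% passed this threshold, and across all named genes 4.31%, of which 3.52% as higher and 0.792% as lower. At an unadjusted p under 0.05, 2 of 9 markers passed (*Fabp7* and *Dnai1*), against 13.1% of named genes. No marker passed an adjusted p under 0.05 in limma, and neither did any of the 30367 probes, of which 3292 had an unadjusted p under 0.05 (lowest adjusted p 0.222). The median log2 fold change was −0.08 for the 6 tanycyte genes and 0.08 for the 3 ciliated cell genes, beside −0.0047 for all named genes.

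**Figure D1:**
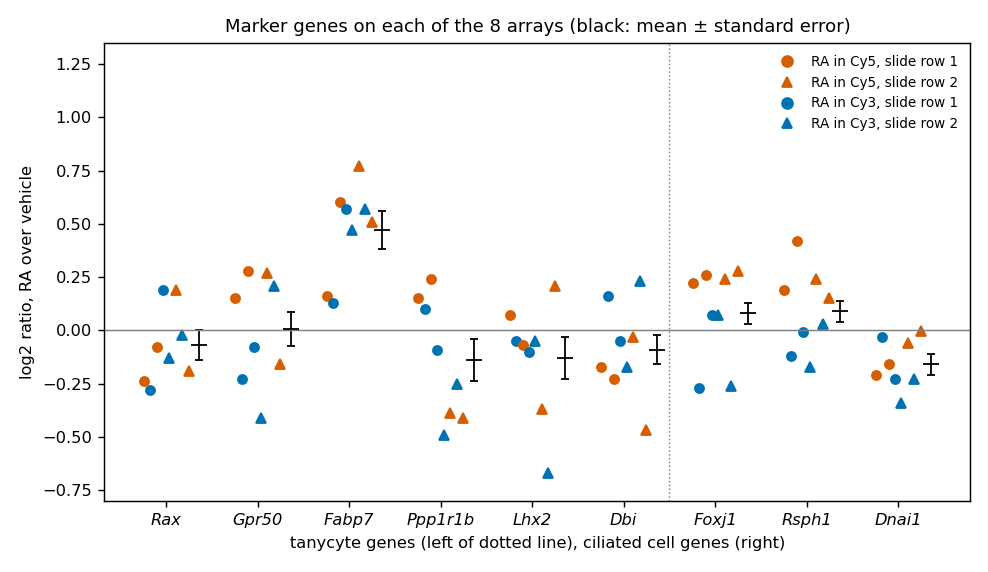
Log2 ratio of RA over vehicle (vertical axis) for each marker gene (horizontal axis) on the 8 arrays, with colour for the dye that carried RA, symbols for the row of the slide, and black bars for the mean ± standard error. *Fabp7* lies above 0 on all 8 arrays with a mean of 0.47, *Dnai1* lies below 0 on all 8 with a mean of −0.16, and the other 7 genes have arrays on both sides of 0.

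*Fabp7* encodes the brain fatty acid binding protein of radial glia, tanycytes and astrocytes, which carries long-chain fatty acids inside the cell. As the one marker that passed, its promoter is shown from the bases just before to just after the RefSeq start site (GRCr8, chr20:37669356-37669655, plus strand), with capitals for the single match to AGGTCA, the repeated unit of retinoic acid response elements, which reads TGACCT on the printed strand.
Fabp7: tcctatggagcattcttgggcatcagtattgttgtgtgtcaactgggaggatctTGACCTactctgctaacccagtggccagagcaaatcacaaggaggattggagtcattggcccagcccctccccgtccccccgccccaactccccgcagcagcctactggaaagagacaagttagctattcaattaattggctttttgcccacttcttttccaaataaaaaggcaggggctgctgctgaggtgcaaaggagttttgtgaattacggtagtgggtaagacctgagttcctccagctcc
The first base of the match is at −196 from the start site. Windows of the same length that hold AGGTCA on either strand made up 16.2% of all 33469 in the RefSeq promoter table, and of the 6 markers with a window (*Rax*, *Gpr50*, *Fabp7*, *Lhx2*, *Dbi* and *Dnai1*) *Fabp7* was the single one. The letters GTTGCC, a part of the X-box that is bound by RFX factors of ciliated cells, were in 12.2% of all windows and in 1 of these 6, that of *Rax*, and were not found in the window of *Dnai1*. These letter matches are descriptions of the windows, and binding was not measured.

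The log2 ratio of *Fabp7* (probe A_43_P12450) was 0.16, 0.13, 0.60, 0.57, 0.47, 0.77, 0.57 and 0.51 on arrays 1 to 8. Arrays 1 and 2 were lowest and array 6 was highest, and every array was above 0. All 8 arrays had the same sign for 2 of the 9 markers, *Fabp7* and *Dnai1*, and for 5.87% of named genes, 4.07% above 0 and 1.8% below. The mean was a log2 fold change of 0.47 (SE 0.09, 95% interval 0.27 to 0.67), or 1.39-fold higher after RA, with an unadjusted limma p of 0.000773 and an adjusted p of 0.227. As the unadjusted p kept is the largest over the 24 pairings, it was necessarily under 0.01 in each of them. A two-sided exact permutation test, in which the signs of the 4 means were flipped, returned p = 0.125, which is the lowest value possible with 4. Among the 15159 named genes it ranked 318 from the top by log2 fold change. The increase was 0.51 on the arrays that had RA in Cy5 and 0.43 on those that had it in Cy3, and it was 0.36 (1.29-fold) on the first row of the slide and 0.58 (1.5-fold) on the second. Its pair of spots on each array differed by a median of 0.04 and at most by 0.13, far less than the range of 0.65 between arrays.

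The normalised log2 intensity of *Fabp7* was 12.00, 12.76 and 13.04 (lowest, median and highest of 8 arrays) in the RA channel and 11.53, 12.21 and 12.40 in the vehicle channel. The channels therefore overlapped across arrays, although RA was above vehicle within each array. The lowest level in both channels came from array 5, which carried a dim patch in which 5.27% of its spots were more than 1 log2 unit dimmer than over the arrays, against at most 0.366% on the others. One of the *Fabp7* spots lay in the patch and gave a ratio of 0.40 on that array, where the other spot gave 0.53. With such dim spots left out, the log2 fold change was 0.48 (unadjusted p 0.000727). Without arrays 1 and 2 it rose to 0.58, and without arrays 6 and 7 it fell to 0.41.

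**Figure D2:**
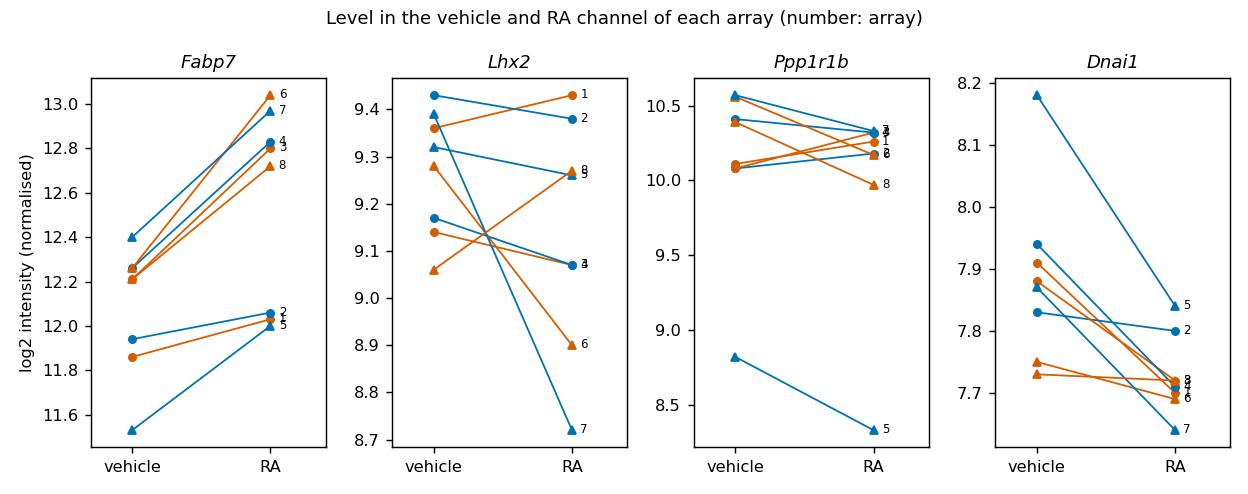
Normalised log2 intensity (vertical axis, with its own range in each panel) of *Fabp7*, *Lhx2*, *Ppp1r1b* and *Dnai1* in the vehicle and RA channel, with a line per array, its number at the right, colour for the dye that carried RA (orange Cy5, blue Cy3) and circles or triangles for the first or second row of the slide. All 8 lines of *Fabp7* rise and all 8 of *Dnai1* fall, those of *Lhx2* fall most on arrays 6 and 7, and *Ppp1r1b* is lowest in both channels on array 5.

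Astrocytes could contribute to *Fabp7*, and their genes were examined on the same arrays. *Gfap*, the intermediate filament of astrocytes, rose by a log2 fold change of 1.4 (SE 0.20, unadjusted p 0.000177, adjusted p 0.222) and was above 0 on all 8 arrays. It was lowest on arrays 1 (0.47) and 2 (0.70), the arrays on which *Fabp7* was also lowest. *Gfap* was chosen after its values were seen. Of the 11 genes in the astrocyte list, all well above background on every array, 4 had a mean above 0 and 7 below. At an unadjusted p under 0.01, 1 rose and 2 fell, beside 3.52% and 0.792% of named genes, and the median was −0.11. The mean log2 level over the list was 12.91 to 13.13 in the RA channels and 12.91 to 13.12 in the vehicle channels. The part of astrocytes in the value of *Fabp7* was not tested.

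*Rax* encodes a homeodomain factor that specifies tanycytes and remains in them in the adult. Its log2 ratio was −0.24, −0.28, −0.08, 0.19, −0.13, 0.19, −0.02 and −0.19 on arrays 1 to 8. It lay below 0 on 6 arrays and above 0 on 2, and the mean was −0.07 (SE 0.07, 95% interval −0.24 to 0.09, unadjusted limma p 0.347). Its brightest probe was well above background on 4 arrays in the RA channel and 5 in the vehicle channel. A second probe, which reached that mark on 1 array in the RA channel and 0 in the vehicle channel, gave −0.05. Both channels were well above background on array 1 alone, and on the other arrays only the Cy5 channel was. With plain background subtraction the mean was −0.37 (SE 0.38), outside the interval above. The pair of spots of the brighter probe differed by a median of 0.36, close to the range of 0.47 between the arrays, so the order of the arrays carries little information for this gene.

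*Gpr50*, an orphan receptor related to the melatonin receptors and found in tanycytes, was near background as well, being well above it on 4 arrays in either channel. On every array this was the Cy5 channel alone, so on no array were both groups well above background. The ratios were 0.15, −0.23, 0.28, −0.08, −0.41, 0.27, 0.21 and −0.16. Arrays divided evenly around 0, and the mean was 0.0042 (SE 0.08, 95% interval −0.19 to 0.20, unadjusted limma p 0.961). The sign and size depended on the processing, with 0.15 (SE 0.33) after plain background subtraction and −0.25 (SE 0.48) in Agilent's log ratio.

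*Lhx2* encodes a LIM homeodomain factor of the developing forebrain that keeps tanycyte identity. The ratios on arrays 1 to 8 were 0.07, −0.05, −0.07, −0.10, −0.05, −0.37, −0.67 and 0.21. Arrays 6 and 7 were lower than the other 6, with a mean of −0.52, and without them the mean was 0.0024. Over all 8 arrays it was −0.13 (SE 0.10, 95% interval −0.36 to 0.10, unadjusted limma p 0.224). On array 7 both spots gave −0.67, and the lower ratio came from the RA channel, where the log2 intensity was 8.72 on array 7 and 8.90 on array 6, against 9.07 to 9.43 on the others. The vehicle channel ran from 9.06 to 9.43 and overlapped with the RA channel.

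Arrays 6 and 7 also stood apart in choroid plexus genes. *Ttr*, the transthyretin of choroid plexus epithelium, had a log2 ratio of −4.48 on array 6 and −5.11 on array 7, whereas it lay between 0.57 and 1.76 on the other arrays. The median of the 15 choroid plexus genes with a probe, 9 of them well above background on every array, was −1.35 and −1.27 on these arrays and 0.07 to 0.42 elsewhere. The mean log2 level over that list was 7.81 to 9.15 in the RA channels and 7.64 to 9.63 in the vehicle channels. The part of choroid plexus tissue in the values of *Lhx2* was not tested. The 3 named genes whose ratios were most like those of *Lhx2* over the 8 arrays, by mean absolute difference, were *Efhb* (0.05), *Afp* (0.07) and *Npy1r* (0.08), and *Afp*, for instance, was at −0.37 and −0.78 on arrays 6 and 7.

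*Ppp1r1b* encodes DARPP-32, an inhibitor of protein phosphatase and a marker of tanycytes in the hypothalamus. Its ratios were 0.15, 0.10, 0.24, −0.09, −0.49, −0.39, −0.25 and −0.41 on arrays 1 to 8. The first 4 arrays, on the first row of the slide, had a mean of 0.10, and the last 4, on the second row, had a mean of −0.38, with no overlap between the rows. Among named genes 7.43% did not overlap between rows, and 2.13% did so with the second row lower. Over all arrays the mean was −0.14 (SE 0.10, 95% interval −0.38 to 0.10, unadjusted limma p 0.207), which did not pass the threshold. It passed with slide row as a block (unadjusted limma p 0.00982), in the pairing with the most calls (0.00973), and on the second row alone (0.000905, adjusted p 0.0296). On the first row alone the unadjusted limma p was 0.142. The fits by slide row held no term for samples used again with the dyes exchanged, so their p-values can be too low.

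A second, dimmer probe of *Ppp1r1b* gave 0.14, 0.13, 0.16, 0.01, −0.47, 0.10, −0.02 and −0.26, with a mean of −0.03 (unadjusted limma p 0.772). The probes were alike on the first row, but on array 6 the brighter was at −0.39 and the dimmer at 0.10. Both spots of the brighter probe lay in the dim patch of array 5, at −1.75 and −1.71 log2 units from their median over the arrays, and with dim spots left out, array 5 was missing for this probe and the mean of the other 7 arrays was −0.09. The striatal neuron list had a median of 0.03 on the first row and −0.07 on the second, with 8 of its 10 genes well above background on every array and a mean log2 level of 9.20 to 9.40 in the RA channels and 9.24 to 9.37 in the vehicle channels. Their part in the difference between the rows was not tested.

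*Dbi* encodes the acyl-CoA binding protein, the precursor of the endozepine peptides that glial cells release. The ratios were −0.17, 0.16, −0.23, −0.05, −0.17, −0.03, 0.23 and −0.47. Array 8 was lowest and array 7 highest, and arrays lay on both sides of 0. The mean was −0.09 (SE 0.07, 95% interval −0.26 to 0.08, unadjusted limma p 0.247). Log2 intensity was 14.41 to 14.85 in the RA channel and 14.45 to 14.89 in the vehicle channel, and the pair of spots differed by at most 0.04 on any array, so the variation between arrays of *Dbi* is much wider than that between spots.

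Among the ciliated cell genes, *Dnai1*, an intermediate chain of the outer dynein arm of motile cilia, was lower after RA on every array. Its ratios were −0.21, −0.03, −0.16, −0.23, −0.34, −0.06, −0.23 and −0.0034 on arrays 1 to 8. Arrays 2, 6 and 8 were close to 0, and array 5 was lowest. The mean was −0.16 (SE 0.05, 95% interval −0.28 to −0.03), or 0.896 of the vehicle level, with an unadjusted limma p of 0.0197 and an adjusted p of 0.356, and it did not pass the threshold of 0.01. The p was under 0.01 in 16 of the 24 pairings, among them that with the fewest calls (unadjusted limma p 0.00837), and with slide row as a block (0.0055). The fit with slide row as a block held no term for samples used again with the dyes exchanged. The log2 intensity was 7.64, 7.71 and 7.84 (lowest, median and highest) in the RA channel and 7.73, 7.88 and 8.18 in the vehicle channel, which overlapped. The pair of spots differed by a median of 0.07 and by 0.32 on array 8, where they lay on both sides of 0 (−0.16 and 0.16).

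*Foxj1*, the master transcription factor of motile cilia, had ratios of 0.22, −0.27, 0.26, 0.07, 0.07, 0.24, −0.26 and 0.28. The 4 arrays with RA in Cy5 (mean 0.25) were all above the 4 with RA in Cy3 (mean −0.10). The mean over both was 0.08 (SE 0.05, 95% interval −0.05 to 0.20, unadjusted limma p 0.211). *Rsph1*, a protein of the radial spoke head, had ratios of 0.19, −0.12, 0.42, −0.01, −0.17, 0.24, 0.03 and 0.15. Its arrays likewise divided by dye, with means of 0.25 for RA in Cy5 and −0.07 for RA in Cy3, and its mean was 0.09 (SE 0.05, 95% interval −0.03 to 0.22, unadjusted limma p 0.121). The dye orders did not overlap for 2 of the 9 markers, both higher with RA in Cy5, whereas 16.2% of named genes did not overlap and 8.93% were higher with RA in Cy5. In a limma model of the 8 arrays with a dye term, that term had an unadjusted p of 0.00505 for *Foxj1* and 0.00392 for *Rsph1* (adjusted p 0.0739 and 0.0664), and 3.89% of all probes had an adjusted dye p under 0.05. With RA in Cy3 alone, both genes had a mean below 0.

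The 3 named genes with ratios most like those of *Rsph1*, the ciliated cell gene with the widest range, were *Parva* (mean absolute difference 0.05 over 8 arrays), *Sec61a2* (0.05) and *Sra1* (0.06). *Sra1*, for instance, was at 0.38 on array 3, where *Rsph1* was at 0.42.

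Set side by side, the medians of the 6 tanycyte genes on arrays 1 to 8 were 0.11, 0.02, 0.08, −0.06, −0.15, 0.08, 0.09 and −0.17, and those of the 3 ciliated cell genes were 0.19, −0.12, 0.26, −0.01, −0.17, 0.24, −0.23 and 0.15. The tanycyte median was above the ciliated median on 3 of the 8 arrays (2, 5 and 7), all of them with RA in Cy3. The difference averaged −0.19 where RA was in Cy5 and 0.10 where it was in Cy3, with extremes of −0.32 (array 8) and 0.32 (array 7). The mean difference of tanycyte against ciliated cell genes therefore changed sign with the dye order. With RA in Cy3, however, it was −0.05 on array 4 and 0.01 on array 5. This description was given no test, as the lists were chosen with results known. With the 4 tanycyte genes that were well above background on all arrays, the median log2 fold change was −0.11.

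Arrays 5 and 8 had the lowest medians of the 6 tanycyte genes and the lowest of the arcuate neuron genes. Over the 4 tanycyte genes that were well above background, array 6 was lowest (−0.20), followed by array 5 (−0.11) and array 8 (−0.10). That arrays 5 and 8 were lowest of all therefore depended on *Rax* and *Gpr50*. Without these genes they still lay below every array except array 6. *Agrp*, an appetite-stimulating peptide of the arcuate nucleus, had log2 ratios of −1.11 and −1.04 on arrays 5 and 8 and −0.09 to 0.05 on the other arrays. The median of the 9 arcuate neuron genes, 8 of them well above background on every array, was −0.58 (array 5) and −0.26 (array 8), whereas it lay between −0.09 and 0.05 elsewhere. The mean log2 level over that list was 10.98 to 11.52 in the RA channels and 11.12 to 11.55 in the vehicle channels. The part of the dissected region in the tanycyte values was not tested.

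**Figure D3:**
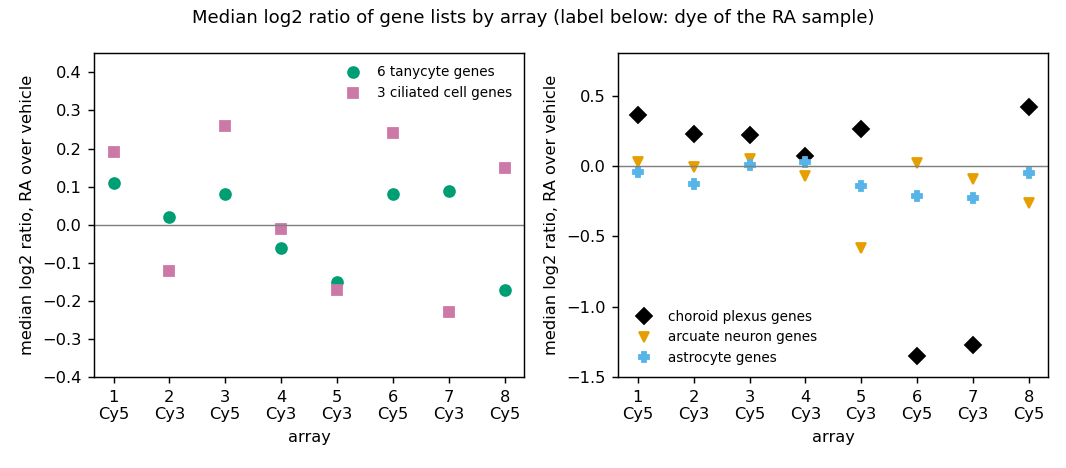
Median log2 ratio of RA over vehicle (vertical axis, with its own range in each panel) on each array (horizontal axis, with the dye that carried RA) for the marker genes at the left and for other cell types at the right. Tanycyte medians lie between −0.17 and 0.11 and ciliated medians between −0.23 and 0.26, while the choroid plexus median falls to −1.35 on array 6 and −1.27 on array 7 and the arcuate neuron median to −0.58 on array 5.

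When arrays were joined in the pairing with the fewest calls (1 with 2, 3 with 4, 6 with 7 and 8 with 5), the ratios of some markers were closer within the couples than in the other 12 combinations of an array of each dye order. For *Fabp7* the mean absolute difference was 0.08 within these couples and 0.28 in the others, for *Ppp1r1b* 0.15 and 0.38, and for *Lhx2* 0.18 and 0.34. For *Rax* it was 0.15 and 0.21, for *Gpr50* 0.26 and 0.35, and for *Dbi* 0.27 and 0.29. For *Foxj1* it was 0.35 in both and for *Rsph1* 0.32 in both, whereas *Dnai1* was farther apart within the couples (0.19) than in the others (0.13). The couple means of *Fabp7* were 0.15, 0.58, 0.67 and 0.49. This pairing was picked from the same ratios, and joining arrays that are alike itself lowers the number of calls. Closeness within the couples is therefore partly built in by that choice. Whether these couples carry the same RNA was not tested.

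Of 40 other genes linked to tanycytes, 36 had a probe and 26 were well above background on all arrays. At an unadjusted p under 0.01, 2 rose and 1 fell, beside 3.52% and 0.792% of named genes, and the median was −0.04. *Vim*, the intermediate filament vimentin, which the paper places in tanycytes and ependymal cells, rose by 0.62 (SE 0.17, unadjusted p 0.00652, adjusted p 0.288), with ratios from 0.16 on array 5 to 1.33 on array 7. Which cells of the tissue blocks carried the rise of *Vim* was not tested. *Rarres2*, which encodes the chemoattractant chemerin, rose by 0.40 (SE 0.11, unadjusted p 0.00799, adjusted p 0.297) and was at −0.00022 on array 1 and 0.95 on array 7. *Gja1*, the gap junction protein connexin 43 that is also in the astrocyte list, fell by 0.22 (SE 0.06, unadjusted p 0.00697, adjusted p 0.290) and lay below 0 on all 8 arrays. Arrays 6 and 7 were the highest for *Vim* and *Rarres2*, whereas they were the lowest for *Lhx2*. Without these arrays the mean was 0.41 for *Vim* and 0.24 for *Rarres2*.

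None of the thyroid hormone genes of tanycytes passed that threshold. *Dio2*, the deiodinase that activates thyroxine, was at −0.11 (unadjusted limma p 0.0948), *Dio3*, the deiodinase that inactivates thyroid hormone, at 0.14 (unadjusted limma p 0.0515), and *Tshr*, the receptor for thyroid-stimulating hormone, at −0.16 (unadjusted limma p 0.158). *Dio2* and *Dio3* were not well above background on every array. The chemerin receptors *Cmklr1* and *Ccrl2* had log2 fold changes of 0.22 (unadjusted limma p 0.0131) and 0.29 (unadjusted limma p 0.0689). *Cmklr1* was well above background on 3 arrays in the RA channel and 0 in the vehicle channel. The mean of *Ccrl2* was 0.09 without arrays 6 and 7. High values in the rest of the list were those of *Crym*, a cytosolic thyroid hormone binding protein (0.52, unadjusted limma p 0.0542), and *Slc16a1*, a monocarboxylate transporter (0.38, unadjusted limma p 0.0136). The lowest were *Aldh1a1*, an enzyme of RA synthesis (−0.40, unadjusted limma p 0.0388), *Sparcl1*, a matrix protein (−0.27, unadjusted limma p 0.0352), and *Frzb*, a secreted Wnt antagonist (−0.24, unadjusted limma p 0.286). *Crym* ranged from −0.23 to 1.45 between arrays, with its highest values on arrays 3 and 4, which is wider than any of the 9 markers.

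Of 112 other genes of motile cilia, 65 had a probe and 44 were well above background on all arrays. None rose and 1 fell at an unadjusted p under 0.01 in limma, and 1 rose and 2 fell at an unadjusted p under 0.05, with a median of −0.04. Among named genes 3.52% rose and 0.792% fell at the first threshold, and 13.1% passed the second in either direction. The one that fell was *Morn2*, a MORN repeat protein, by 0.23 (SE 0.05, unadjusted p 0.00231, adjusted p 0.257), with ratios from −0.41 to −0.06. The next lowest among bright genes were *Drc3* of the dynein regulatory complex (−0.19, unadjusted limma p 0.0258), *Tmem212* (−0.16) and *Cfap43* (−0.14), and the highest were *Enkd1* (0.08), *Cfap52* (0.06) and *Zmynd10* (0.06). The −0.16 of *Dnai1* was thus near the low end of a list that lay between −0.23 and 0.18. Dye orders did not overlap for 3 of the 65 with RA in Cy5 higher and for 1 with RA in Cy5 lower. Among named genes the shares were 8.93% with RA in Cy5 higher and 16.2% in either direction.

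**Figure D4:**
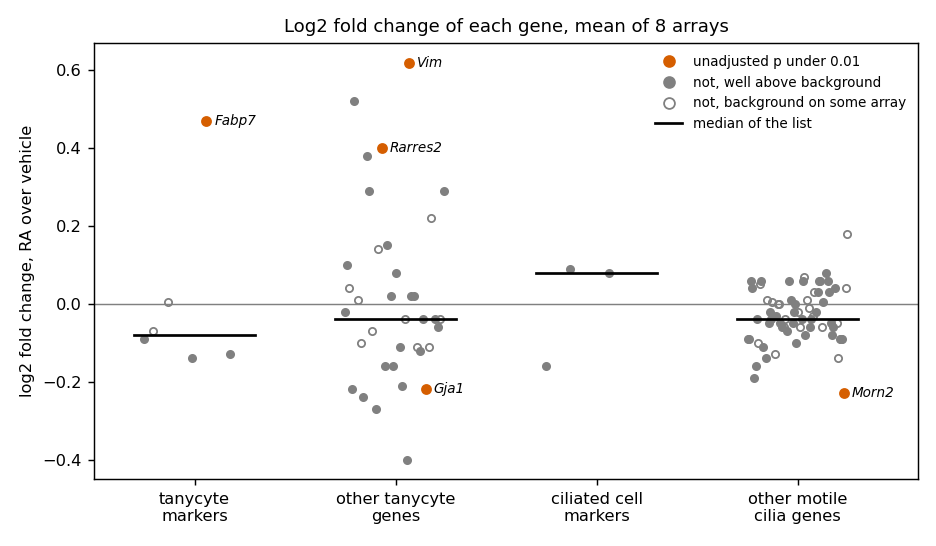
Log2 fold change of RA over vehicle, the mean of 8 arrays (vertical axis), for the markers and the other genes of each cell type (horizontal axis), with genes at an unadjusted p under 0.01 named in orange, open circles for genes not well above background on every array, and a black line for the median of each list. *Fabp7*, *Vim* and *Rarres2* lie at 0.40 or above and *Gja1* and *Morn2* below 0, while the medians lie between −0.08 and 0.08.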

How the data were processed

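For each two-colour array the authors deposited linear intensity values of every spot in both dyes, together with Agilent's log10 ratio (Cy5 over Cy3), made with Agilent Feature Extraction 10.7.3.1 per the file headers. A series table that the authors deposited holds log2 ratios after loess in limma, with identical probes averaged. Here R 4.3.3 with limma 3.58.1 was applied to the median intensities. The normexp method (offset 50) was used for background, outlier spots and controls were left out, loess was applied within arrays, spots of a probe were averaged, and ratios were turned to RA over vehicle. Each of the 8 arrays had 58717 spots that were not controls, for 30367 probes. Between 57.4% and 74.6% of probes were well above background per channel, and the number of arrays limits the precision. Benjamini-Hochberg adjustment covered all probes, and the test was checked on simulated arrays. Names came from the RefSeq genes of GRCr8 through transcript accessions, which left 12361 probes unnamed.

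The markers and lists were chosen with earlier results of these data known. Besides the markers, the text names the genes of the 2 wider lists with an unadjusted p under 0.01, the 3 highest and 3 lowest of the rest that were bright, genes that the paper places at the ventricle, *Ttr* and *Agrp*, and the 3 genes most like the widest-ranging marker of each kind. *Gfap* was chosen after its values were seen. One gene that this rule names is not reported here. Lists for pan-neuronal and pituitary genes had medians of −0.14 and −0.06.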

Additional observations from a re-analysis of the deposited data

Results flagged for a closer look

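Within the 4 arrays of a dye order, values were searched for 1 array far from the other 3, in 22 groups, of which chance gives about 1.1. For *Lhx2* with RA in Cy3, array 7 had a log2 ratio of −0.67, whereas the other 3 lay between −0.10 and −0.05. For the median of the tanycyte genes with RA in Cy5, array 8 had −0.17, whereas the other 3 lay between 0.08 and 0.11. This rests on *Rax* and *Gpr50*, since the median over the 4 tanycyte genes well above background was −0.10 on array 8, with −0.20 on array 6 and 0.11 and 0.08 on arrays 1 and 3.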

How the results depend on the processing

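*Fabp7* kept its direction and an unadjusted p under 0.01 in 18 of 18 alternatives (0.36 to 0.58). It did so as well in 16 of 16 fits that left out 1 array of each dye order (0.41 to 0.58). Its adjusted p ran from 0.0012 with slide row as a block to 0.707 with plain background subtraction over those 18, and was 0.0138 with a random replicate block. The main fit gave 0.227. Samples were used again with the dyes exchanged, and the fit with slide row as a block held no term for this. The couples of the random block were picked from these data as the pairing with the fewest calls. *Dnai1* stayed below 0 in all 18 (−0.26 to −0.11), with p under 0.01 in 4 (both single pairings, arrays as independent, and slide row as a block). Leaving out dim spots was chosen after seeing the data. The labels do not pair samples by number, and a random replicate block on the couples 1 and 2, 3 and 4, 6 and 7, and 8 and 5 (correlation 0.33) called 1806 probes and 1 marker, *Fabp7*, where 988 probes and 1 marker were called.

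The count of probes called was 237 with plain background subtraction and 330 with Agilent's log ratio, in both of which *Fabp7* stayed the single marker. It was 3142 in the pairing with the most calls (3 markers), 2481 with arrays taken as independent (2), 2161 with RA in Cy5 alone (3), 2317 with RA in Cy3 alone (1), 3111 with slide row as a block (3) and 2290 on the second row alone (2), and 2 markers were called in the pairing with the fewest calls. Fits without 1 array of each dye order called 455 to 1111 probes (455 without arrays 8 and 5, 533 without 6 and 5, 541 without 8 and 7, 603 without 6 and 7) and 1 marker in each, with medians of −0.10 to −0.03 for tanycyte genes and 0.04 to 0.11 for ciliated cell genes. With RA in Cy3 alone the ciliated median was −0.10. *Gpr50* turned to −0.0045 without background correction, −0.25 with Agilent's ratio, −0.0038 with the deposited values, −0.13 with RA in Cy3 alone and −0.02 on the second row. It ranged from −0.08 to 0.10 without 1 array of each dye order. With RA in Cy3 alone *Dbi* was 0.04, *Foxj1* −0.10 and *Rsph1* −0.07. *Ppp1r1b* was 0.10 on the first row alone, and was the third marker called in the pairing with the most calls and with slide row as a block, and the second on the second row alone. *Lhx2* ranged from −0.20 to 0.0024 without 1 array of each dye order. The causes were not tested. Quantile scaling of intensities leaves the ratios as they are and gave no value. *Gpr50* on all 8 arrays and *Rax* on all but array 1 were well above background in the Cy5 channel alone, which limits what their ratios show.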
